A study of Mus musculus with 88 samples.

Results

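Cluster 6 was the group of embryoid body cells that the study's clustering at resolution 2.5 numbered 6. It held 303 of the 4949 cells kept over 16 single-cell libraries. All 303 cells carried the genotype label Eed null. Of these, 280 cells came from day 0, 17 from day 4, 6 from day 7 and 0 from day 10. The cluster was therefore almost entirely the undifferentiated state of 1 cell line, and it held 82.4% of that library's kept cells (280 of 340, exact 95% interval 77.9 to 86.3%).

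The study followed embryonic stem cells, grown in serum with LIF, through embryoid body formation on days 0, 4, 7 and 10 after LIF withdrawal, in cells labelled wild type (WT) and in lines null for Mtf2, Jarid2 or Eed. Live cells were sorted into multi-well plates by SORT-seq, a plate form of CEL-Seq2 that counts unique molecular identifiers (UMIs), with 1 plate per genotype and day. Cells from the same plate share 1 culture, so intervals given for single cells cover counting error only and no p-value was computed between clusters. The labels give the strain of every single-cell library as E14, whereas the study's methods give J1 as the wild type matched in background to the Eed null line, so loss of Eed and descent from another line cannot be told apart in a comparison with the WT plates.

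EED is the subunit of Polycomb Repressive Complex 2 (PRC2) that binds trimethylated lysine 27 of histone H3 and that the catalytic subunit EZH2 needs for its activity. PRC2 places this repressive mark at CpG-rich promoters, among them those of the Hox genes and other developmental regulators. MTF2 and JARID2 are accessory subunits of alternative forms of the complex and help bring it to its targets. Embryonic stem cells without EED can self-renew, while their differentiation is known to be abnormal.

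Eed itself was close to absent. The 303 cells held 38 UMIs of Eed in 33 cells, 28 of them with 1 UMI and 5 with 2, a pooled level of 12.5 UMI CPM (the CPM of UMI counts pooled over the cells of a cluster). Clusters 3, 0 and 8, where most WT, Mtf2 null and Jarid2 null cells of day 0 lay, had 497, 449 and 524. By library, the 4 Eed null plates had 11.5, 1.33, 2.55 and 3.73 UMI CPM on days 0, 4, 7 and 10, and the lowest of the other 12 plates had 115. The Eed signal of cluster 6 came only from its day 0 cells, since the cells of days 4 and 7 held 0 UMIs of Eed.

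**Figure D1:**
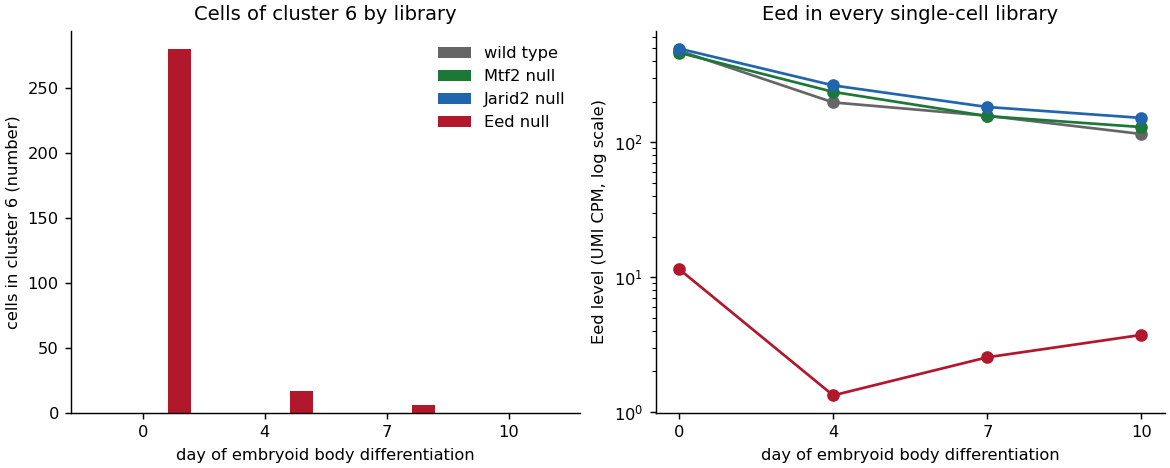
Left, number of cells in cluster 6 by genotype label and day of differentiation, 1 library each. Right, Eed level (UMI CPM, log scale) in all 16 libraries. All cluster 6 cells are in the Eed null libraries, 280 of them on day 0, and Eed lies below 12 UMI CPM only in the Eed null libraries.

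The cells of cluster 6 were deeply counted for this data set. Their median was 9386 UMIs per cell, beside 8485, 9973 and 10060 for clusters 3, 0 and 8. The day 4 and day 7 members were shallower, with medians of 1725 and 3771 UMIs. The plates share 1 set of well barcodes, and the 286 distinct wells of the cluster 6 cells were all used in other libraries too, so a barcode alone does not identify a cell.

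Pluripotency genes in cluster 6 were at levels close to those of other day 0 cells. Naive pluripotency genes, which mark the ground state before implantation, had 12 of 14 members above the level in all other cells, and core pluripotency genes had 7 of 9. Over all genes 3919 of 7714 were above that level. Most of those other cells came from later days, so these counts do not compare cluster 6 with day 0 cells. Sox2, a central transcription factor of pluripotency, stood at 1090 UMI CPM against 992 in cluster 3, and Nanog, its partner in the same network, at 358 against 217. After each cell was thinned to 2500 UMIs, a cluster 6 cell held 11.3 ± 4.57 UMIs of the 14 naive genes (SD, 278 cells) and a cluster 3 cell 12.6 ± 4.66 (318 cells). For the 9 core genes the means were 14.3 ± 4.51 and 14.5 ± 4.43. Neither list had a member at a 4-fold difference from cluster 3, and their median log2 ratios were 0.01 and -0.09, beside -0.02 over all genes.

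Single naive genes departed from this balance in both directions. Klf5, a Kruppel-like factor of the naive network, was at 393 UMI CPM in cluster 6 and at 1297, 1516 and 1019 in clusters 3, 0 and 8. Nr0b1, a nuclear receptor that curbs Oct4 and other stem cell factors, was at 186 against 423, 581 and 611.2. Zfp42 (Rex1), the classical naive marker, was at 1378 against 821, 144 and 125. Cluster 6 was thus lowest of the day 0 clusters for Klf5 and Nr0b1 and highest for Zfp42.

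Markers of differentiated cells ranged from near absent to list sums like those of all other cells. Such sums could still differ from those of the other day 0 clusters. The embryonic globin genes Hba-x and Hbb-bh1, which mark primitive red cells, had 2 and 0 UMIs in cluster 6 against 784 and 499 UMI CPM in all other cells. Of 7 fibroblast genes with at least 20 UMI CPM, 6 were lower than in all other cells by 4-fold or more, and Thy1, a surface glycoprotein that is not restricted to fibroblasts, was higher at 45.6 against 8.22. The fibroblast list summed to 61.7 UMI CPM in cluster 6, 355 in all other cells and 11.9, 15.9 and 5.47 in clusters 3, 0 and 8. Olig2, a neural transcription factor, had 2 UMIs (0.66 UMI CPM), a level like that of cluster 3 (0.68), and was at 163 and 295 UMI CPM in the Mtf2 null and Jarid2 null day 0 clusters. The 10 primitive streak genes summed to 30.04 UMI CPM against 185 in all other cells and 6.12, 10.3 and 11.7 in clusters 3, 0 and 8. The trophoblast and simple epithelium list summed to 158 against 292 in all other cells but 54.4, 66.4 and 26.6 in clusters 3, 0 and 8, with Gata2 and Hand1 higher than in each, while its member Cdx2 had 0 UMIs. Extraembryonic endoderm genes summed to 888 UMI CPM, against 788 in all other cells and 470, 368 and 314 in clusters 3, 0 and 8. The mesoderm, cardiac and vascular genes summed to 467 against 455, and to 735, 337 and 262 in the same clusters. The neural list summed to 271 against 568, and to 215, 487 and 780 there, with Sox11 at 72.6 UMI CPM in cluster 6. In cluster 6 a single gene gave the larger part of each of these sums. Its day 0 cells had Sparc (endoderm list) at 536, Bmp4 (mesoderm list) at 375 and Tubb3 (neural list) at 153 UMI CPM.

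A gene is called higher or lower in a cluster below where its pooled level differed at least 4-fold and reached 20 UMI CPM in the higher group. This is a description without a test, since the clusters were built from the same genes. Against all other cells, 65 of 7714 genes were higher (0.843%) and 152 were lower (1.97%). Among genes at 50 UMI CPM or more, the leading one was Npy, which encodes neuropeptide Y, with 312 UMIs (103 UMI CPM) in cluster 6 and 3.46 UMI CPM elsewhere, a ratio of 29.8 (interval 24.1 to 36.97). Emp1, an epithelial membrane protein, was at 118 against 13.2 UMI CPM, and Myof, which encodes the membrane repair protein myoferlin, at 99.4 against 11.8. Khdc3, a component of the maternal complex of the oocyte, was at 385 against 49.5. Below that level, Bhlhe23, named after its values were seen, was at 20.8 against 0.68. Further genes at 50 UMI CPM or more were Dqx1, Pnma5, Dpys, Nefh, Nos1, Rpl10l and Calcoco2, with ratios between 5.82 and 6.95. Rpl10l is a retrocopy of a ribosomal protein gene, so its count is uncertain.

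Genes of differentiated cells led those lower than in all other cells. After the globins came Cdh11, Olig2, Col1a1, Dlk1, Col1a2 and Pmp22. Col1a1 and Col1a2, the chains of type I collagen, had 4 and 5 UMIs in the 303 cells. Dlk1, an imprinted ligand of the Notch family, was at 8.25 UMI CPM against 366. With day 0 cells alone on both sides, 100 genes were higher and 46 lower.

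The comparison with clusters of the same day holds the time in culture equal. Against cluster 3, in which 311 of 335 cells were WT, 141 of 7442 genes were higher in cluster 6 (1.89%) and 48 were lower (0.645%). Against cluster 0 (334 of 386 cells Mtf2 null) 179 were higher (2.43%) and 78 lower (1.06%), and against cluster 8 (250 of 265 cells Jarid2 null) 253 were higher (3.45%) and 81 lower (1.10%). In total 73 of 7733 genes were higher in cluster 6 than in each of the 3 (0.944%), and 10 were lower than in each (0.129%).

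**Figure D2:**
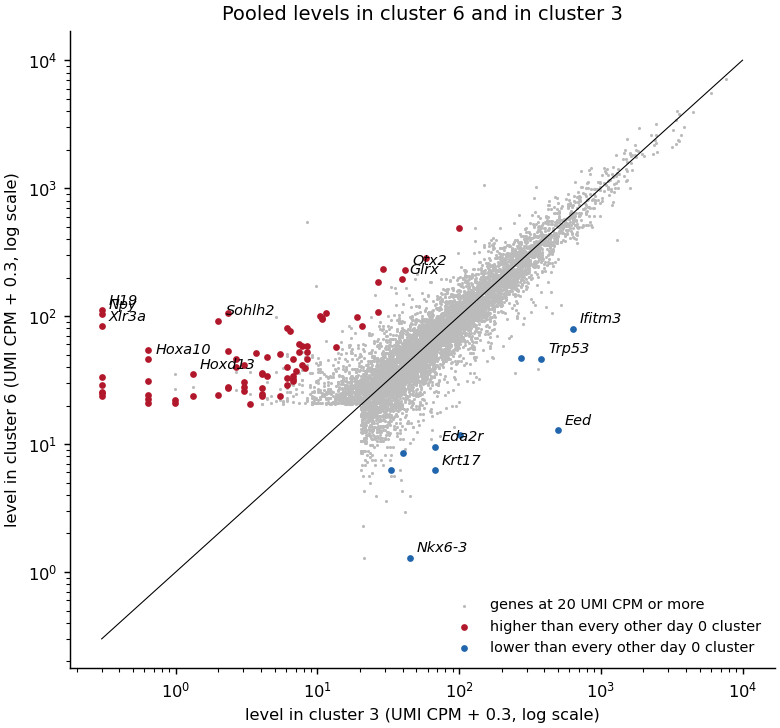
Pooled level of each gene in cluster 6 (vertical) and cluster 3 (horizontal), as UMI CPM plus 0.3 on log scales, for genes at 20 UMI CPM or more in either cluster; the line marks equal levels. Red points are the 73 genes higher, and blue points the 10 genes lower, than in each of clusters 3, 0 and 8. Npy, H19 and Xlr3a lie at the left edge with 0 UMIs in cluster 3, and Eed and Trp53 lie far below the line.

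Transcription of the Hox clusters set cluster 6 apart from the other day 0 cells. Hox genes encode the transcription factors of the body axis and are silent in stem cells. Hoxa10 had 138 UMIs (45.6 UMI CPM) in cluster 6, and 0.34 UMI CPM in cluster 3 and 0 UMIs in clusters 0 and 8. Hoxd13 had 106 UMIs (34.99 UMI CPM) against 1.02, 2.78 and 4.69 UMI CPM. Summed over the 35 measured Hox genes, cluster 6 reached 236 UMI CPM and clusters 3, 0 and 8 reached 8.84, 9.84 and 14.5. At 2500 UMIs per cell, 113 of 278 cluster 6 cells held a Hox UMI (40.6%, interval 34.8 to 46.7%), against 1.57%, 3.02% and 2.61% in clusters 3, 0 and 8. Genes from all 4 Hox clusters contributed, with Hoxc10 at 16.5, Hoxc13 at 15.2 and Hoxb7 at 12.2 UMI CPM, while Hoxb5 and Hoxb6 had 0 UMIs. The 50 other developmental regulators measured were mostly too low to compare singly, with 3 at 20 UMI CPM or more in cluster 6 or 3 and neither direction called between these. Their sum was 229 UMI CPM in cluster 6 against 131, 167 and 124 in clusters 3, 0 and 8.

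Germline genes formed the second group. Against cluster 3, 5 of 13 germline and meiosis genes at 20 UMI CPM or more were higher and 0 were lower, with a median log2 ratio of 1.55 beside -0.02 over all genes. Sohlh2, a transcription factor of early germ cells, was at 91.4 UMI CPM against 1.70, 3.79 and 5.08 in clusters 3, 0 and 8. Mael, which acts in piRNA silencing of transposons, was at 47.5 against 4.08, 7.82 and 2.35. Dazl, an RNA-binding protein of germ cells, was at 45.9 against 6.46, 9.09 and 6.26. Tex15, another factor of transposon silencing in testis, was at 97.7 against 4.76 in cluster 3 but reached 52.5 in cluster 0, so it was not among the 73. Dnmt3l, the cofactor of de novo DNA methylation, was at 1013 against 346, 459 and 190. After thinning, a cluster 6 cell held 4.80 ± 2.77 UMIs of the 19 measured genes, against 1.98 ± 1.69, 2.98 ± 2.16 and 1.41 ± 1.61.

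The promoters of Hoxd13, Mael and Sohlh2 from these groups, and of Npy and Trp53 from outside them, are shown as examples, with their CpG sites. They are the 250 bases before and 50 after the start in RefSeq (GRCm38.p6), written 5′ to 3′ along the gene's strand, with each CG in capitals. Hoxd13 lies at chr2:74667975-74668274 (plus strand), Npy at chr6:49822460-49822759 (plus), Mael at chr1:166238695-166238994 (minus), Sohlh2 at chr3:55181794-55182093 (plus) and Trp53, a gene lower in cluster 6, at chr11:69580109-69580408 (plus).
Hoxd13: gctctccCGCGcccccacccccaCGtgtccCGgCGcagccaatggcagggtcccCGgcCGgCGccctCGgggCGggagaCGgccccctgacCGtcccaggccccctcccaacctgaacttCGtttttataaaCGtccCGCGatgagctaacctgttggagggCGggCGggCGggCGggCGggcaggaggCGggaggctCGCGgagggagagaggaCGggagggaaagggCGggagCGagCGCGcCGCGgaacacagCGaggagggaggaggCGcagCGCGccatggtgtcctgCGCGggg
Npy: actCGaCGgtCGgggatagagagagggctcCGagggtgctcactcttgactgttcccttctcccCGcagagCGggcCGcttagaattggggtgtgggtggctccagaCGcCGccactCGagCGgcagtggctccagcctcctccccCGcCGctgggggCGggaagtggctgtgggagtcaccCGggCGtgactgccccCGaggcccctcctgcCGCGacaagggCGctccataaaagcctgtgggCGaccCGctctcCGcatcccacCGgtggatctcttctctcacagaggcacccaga
Mael: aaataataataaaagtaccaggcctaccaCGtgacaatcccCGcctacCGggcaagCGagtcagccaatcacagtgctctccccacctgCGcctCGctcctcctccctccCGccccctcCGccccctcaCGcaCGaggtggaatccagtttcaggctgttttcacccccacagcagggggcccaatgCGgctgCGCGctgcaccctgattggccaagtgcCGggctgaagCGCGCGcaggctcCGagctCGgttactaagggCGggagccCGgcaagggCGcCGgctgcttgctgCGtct
Sohlh2: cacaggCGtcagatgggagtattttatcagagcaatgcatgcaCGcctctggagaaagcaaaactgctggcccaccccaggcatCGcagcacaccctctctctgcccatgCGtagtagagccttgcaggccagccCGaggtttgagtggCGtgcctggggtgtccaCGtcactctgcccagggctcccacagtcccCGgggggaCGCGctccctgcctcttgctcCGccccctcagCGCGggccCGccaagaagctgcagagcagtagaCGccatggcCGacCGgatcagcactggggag
Trp53: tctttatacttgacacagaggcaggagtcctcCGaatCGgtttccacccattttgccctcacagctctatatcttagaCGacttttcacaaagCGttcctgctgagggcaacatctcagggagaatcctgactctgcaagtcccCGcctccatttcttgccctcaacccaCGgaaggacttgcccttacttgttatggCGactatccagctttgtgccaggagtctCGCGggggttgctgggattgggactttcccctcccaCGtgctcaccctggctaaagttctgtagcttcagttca
The windows hold 37, 24, 24, 17 and 10 CG pairs, in the order printed. A comparison of CpG content between gene groups was void, because only 71.2% of the 73 genes and 73.1% of all measured genes had a promoter in the reference table. The sequences are a description of these windows only.

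The X-linked Xlr genes, germ cell and lymphocyte genes that lie in tandem copies, were near or at 0 in the other day 0 clusters. Xlr3a had 252 UMIs (83.2 UMI CPM) in cluster 6 and 0 in clusters 3, 0 and 8, so that it was at least 81.6-fold higher than in cluster 3, taking 3 UMIs in the whole cluster as the floor. Xlr4a, Xlr4c, Xlr5a and Xlr5b, at 23.4 to 33.3 UMI CPM, likewise had 0 UMIs in the other day 0 clusters, and Xlr3c had at most 0.78 UMI CPM there. Zfp264, a zinc finger gene outside the family, was also at 28.4 UMI CPM against 0 UMIs in all 3. Reads of these near-identical copies can be split between them, so their single values are uncertain. In all, 11 of the 70 genes of the 73 that could be placed were X-linked (15.7%), beside 4.02% of all measured genes. The Xlr copies named above are among the 11, so these are not all separate observations. Over 289 X-linked genes the median log2 ratio to cluster 3 was 0.04.

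The other members of the 73 had mixed roles. H19, an imprinted noncoding RNA, was at 111 UMI CPM with 0 UMIs in clusters 3 and 8, at least 94.8-fold higher than in cluster 8. Few cells carried much of it, since at 5000 UMIs per cell the 5 highest of 235 cells held 36.9% of its UMIs. Otx2, a homeobox factor of the formative epiblast, was at 228 against 24.7 to 41.1, and Fgf5, the usual marker of that stage, was at 0.99. Gata2 and Hand1, regulators of trophoblast and mesoderm, reached 27.1 and 30.7 against at most 4.04. Col4a1 and Col4a2, the basement membrane collagens, were at 106 and 34.99 against at most 11.2 and 3.74. Bmi1, a PRC1 subunit, was at 52.5 against 7.14 to 12.1 UMI CPM, Ccnd2 (cyclin D2) at 99.4 against 10.2 to 22.3, and Glrx (glutaredoxin) at 194 against 3.13 to 39.4. The subunits of PRC2 other than Eed showed 0 members at a 4-fold difference from cluster 3, with Ezh2 at 233 against 193 and Suz12 at 425 against 297 UMI CPM.

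The 10 genes lower than in each day 0 cluster were Eda2r, Eed, Fam129a, Ifitm3, Irak3, Krt17, Nkx6-3, Pop4, Rps15a and Trp53. Trp53, which encodes the tumour suppressor p53, was at 46.2 UMI CPM (140 UMIs) against 377, 414 and 419, and at 2500 UMIs per cell it was seen in 10.4% of cluster 6 cells (7.10 to 14.6%) while clusters 3, 0 and 8 had it in 62.6%, 60.4% and 67.0% of cells. Eda2r, a death receptor gene that p53 is known to activate, was at 9.24 against 56.7 to 72.4. Ifitm3, an interferon-induced membrane protein, was at 79.2 against 599 to 817. The list of p53 targets had a median log2 ratio of -1.09 against cluster 3, with Trp53inp1, Phlda3 and Eda2r lower, while Sesn1 was at 24.4 against 10.9 UMI CPM. Rps15a stood at 46.9 against 273 to 297 and its copy Rps15a-ps6, one of the 73, at 186 against 23.2 to 27.8, so that both are uncertain.

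Some differences from a single cluster were not particular to the Eed null label. Hprt, a purine salvage gene that some E14 sublines are known to lack, was at 540 UMI CPM in cluster 6 and 8.16 in cluster 3, but at 618 in the Mtf2 null and 653 in the Jarid2 null day 0 library. Rplp1, a ribosomal protein gene, was at 176 in cluster 6 and 132 in the WT day 0 library, but at 3674 and 3537 in clusters 0 and 8. Meg3 and Rian, noncoding RNAs of 1 imprinted locus, were at 37.96 and 13.2 against 358 and 92.1 in cluster 3, and at or below 10.1 in clusters 0 and 8. Over all days, Hprt was at 0.47 to 3.35 UMI CPM in the WT plates and at 156 to 653 in the mutant plates. Rplp1 was at 132 to 584 in the WT plates and 183 to 302 in the Eed null plates. In the Mtf2 null and Jarid2 null plates Rplp1 was at 3248 to 4270. Hprt was thus low in the WT plates, Rplp1 was low in the WT and Eed null plates, and Meg3 and Rian were high in cluster 3.

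Levels also differed by whole chromosome. This was examined after genes of distal chromosome 14 were seen among those lower in cluster 6. The median log2 ratio of cluster 6 to cluster 3 was 0.50 over 394 genes of chromosome 3 and 0.48 over 342 genes of chromosome 6, whereas the other chromosomes lay between -0.25 and 0.08. On these chromosomes 85.3% and 86.0% of genes were above the level of cluster 3, against 47.9% of all placed genes. The 33 genes of chromosome 14 that start from 90 Mb on had a median of -1.45. The same chromosomes stood apart from clusters 0 and 8, with 0.53 and 0.59 for chromosome 3, 0.58 and 0.64 for chromosome 6, and -0.89 and -0.98 for distal chromosome 14. Chromosome 8 was also apart in these 2 comparisons, at 0.35 and 0.25 with 75.7% and 68.9% of genes above 0 beside 54.3% and 56.0% of all placed genes, and its median was 0.08 against cluster 3.

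The 4 Eed null plates differed from the others in the same way. Chromosome 3 gave 5.75 to 6.32% of their UMIs of placed genes and 4.23 to 4.58% in the 12 others, and chromosome 6 gave 6.402 to 6.52% against 4.52 to 4.83%. Distal chromosome 14 gave 0.212 to 0.228% against 0.339 to 0.521%. The groups did not overlap for any of the 3 regions, which were picked from cells of these same plates. Whole chromosome 14 did not overlap either, at 3.07 to 3.26% against 3.42 to 4.33%. The shares of chromosomes 8 and 11 overlapped, and the remaining chromosomes were not compared by plate. The 4 Eed null plates come from 1 line, so they are not independent replicates. Within cluster 6 the chromosome 3 share had a median of 6.19% with quartiles of 5.86 and 6.43%, and in cluster 3 the quartiles were 4.28 and 4.64%. The 17 day 4 cells and the 6 day 7 cells pooled to 6.10 and 5.61% for chromosome 3 and to 6.59 and 7.13% for chromosome 6, on the side of the Eed null plates. Copies of chromosomes were not measured here.

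**Figure D3:**
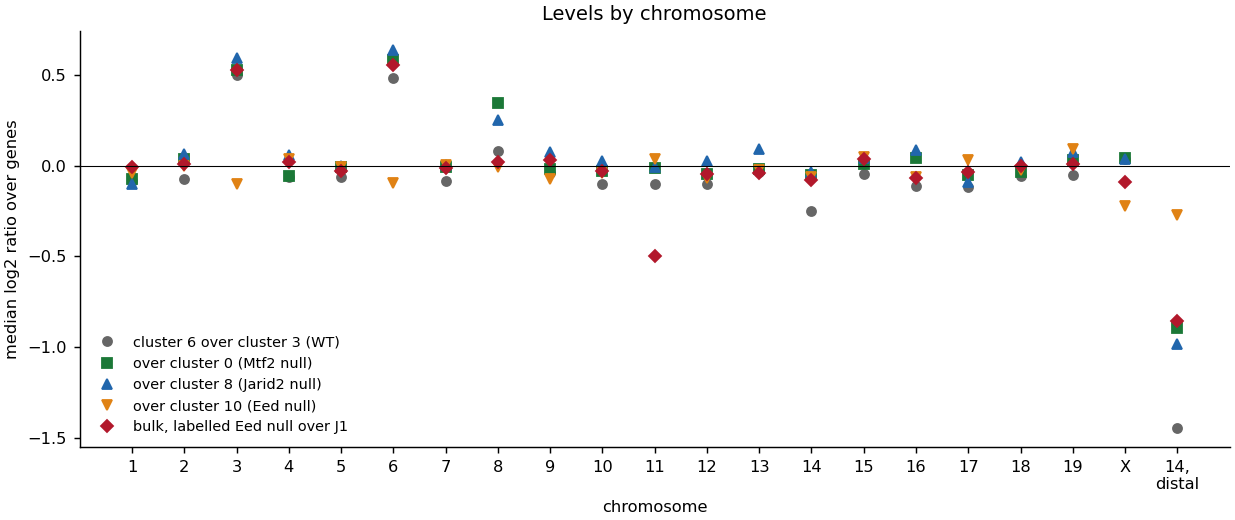
Median log2 ratio over the genes of each chromosome, and of chromosome 14 from 90 Mb on, for cluster 6 over 4 other clusters (genes at 20 UMI CPM or more in either) and for the bulk libraries labelled Eed null over J1. Against clusters 3, 0 and 8 and in bulk, chromosomes 3 and 6 lie between 0.48 and 0.64 and distal chromosome 14 lies between -1.45 and -0.86, whereas against Eed null cluster 10 the same chromosomes lie at -0.10, -0.10 and -0.27. Chromosome 11 lies at -0.50 in bulk.

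Of the 70 placed genes among the 73, 6 lay on chromosome 3 (8.57%, beside 4.89% of measured genes), Sohlh2 and Crabp2 among them. Another 8 lay on chromosome 6 (11.4% beside 5.17%), with Npy and Hoxa10. Of the 47 placed genes lower than in cluster 3, 9 lay on distal chromosome 14 (19.1%, beside 0.398% of measured genes), Mbnl2 and Klf12 among them. That region was examined because such genes had been seen among those lower in cluster 6, so this share is not separate support. Of the 10 genes lower than in every day 0 cluster 9 were placed, and 0 of these lay there.

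Bulk embryoid bodies gave a test in samples that the clustering did not use. Samples titled eedko were compared with those titled j1_eedwt (J1 below) on days 0, 2, 4 and 7, with 1 sample per line and day. The day entered limma as a block. All titles name embryoid bodies, but the day 0 columns are marked mono, read here as monolayer cells, and later days eb. Day 0 had 1 column per line and the later days 2. J1 is a mouse embryonic stem cell line, here the wild type matched to the Eed null cells by the study's methods. In bulk RNA, fewer cells of a kind and less RNA per cell cannot be told apart. In the libraries labelled Eed null, Eed RNA stood at 118, 217, 112 and 61.97 CPM, and J1 had 111, 256, 82.8 and 55.3 (limma adjusted p = 0.61), so Eed RNA did not separate the labels in bulk. The medians of chromosomes 3, 6 and distal 14 did, at 0.53, 0.56 and -0.86. Chromosome 11, on which Trp53 lies, had a median of -0.50 in bulk and -0.10 against cluster 3.

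Over all genes, 726 of 14565 were higher in the libraries labelled Eed null at a limma adjusted p under 0.05 (4.98%) and 671 were lower (4.61%). At an unadjusted limma p under 0.05, 4273 of the 14565 differed in either direction. The unadjusted counts of gene sets in bulk below are to be read beside that share. Without TMM scaling, which corrects for composition, the counts were 1094 and 438. Of the 73 genes of cluster 6, 69 were tested, of which 25 rose and 0 fell (50 and 2 at an unadjusted p under 0.05, and 18 and 0 by edgeR), with a median log2 change of 1.54 and 64 above 0. Of the 10 lower genes 9 were tested and 3 fell, namely Trp53, Eda2r and Ifitm3. These calls were fragile. Leaving out 1 day left 3 to 45 genes higher and 4 to 42 lower over the whole table, and 0 of the 25 and 2 of the 3 (Trp53 and Eda2r) still passed whichever day was left out.

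Trp53 had the lowest adjusted p of these 3. Its bulk level on days 0, 2, 4 and 7 was 15.4, 46.99, 24.997 and 13.2 CPM under the Eed null label and 269, 396, 241 and 188 in J1, with no overlap. The log2 change was -3.56 ± 0.19 (SE, n = 4 pairs) with an adjusted p of 0.004 by limma and at most 0.042 without any 1 day. Eda2r was at 6.39, 10.5, 3.89 and 6.55 CPM against 159, 94.7, 51.9 and 81.7, a change of -3.74 ± 0.25 (limma adjusted p = 0.007, at most 0.042). Of 12 p53 targets tested, 9 fell and 0 rose (9 and 0 also at an unadjusted p under 0.05 and by edgeR), 2 of them whichever day was left out, with Ccng1 (cyclin G1) at a log2 change of -3.48 and Cdkn1a (the cell cycle inhibitor p21) at -2.56. Cdkn2a, which encodes inhibitors of the cell cycle and of MDM2 and is a classical PRC2 target, rose by 3.26 ± 0.36 on the log2 scale (limma adjusted p = 0.015, at most 0.065 without 1 day). It held 19 UMIs in cluster 6, or 6.27 UMI CPM against 2.04 in cluster 3.

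Hox genes were higher in bulk too. Of 26 tested, 15 rose and 0 fell by limma (22 and 0 at an unadjusted p under 0.05), with a median log2 change of 2.72 and all 26 above 0. Hoxd13 had 8.38, 9.80, 13.3 and 19.6 CPM under the Eed null label and 0.19, 0.60, 0.86 and 0.75 in J1. Its log2 change was 3.98 ± 0.32 (limma adjusted p = 0.009, at most 0.082 without 1 day), and all 4 days showed the direction. By edgeR 6 of the 26 Hox genes passed, and 0 passed by limma whichever day was left out. Outside the Hox clusters, 5 of 32 developmental regulators rose and 0 fell (10 and 0 at an unadjusted p under 0.05).

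Germline genes rose in part. Of 21 tested, 7 rose and 0 fell (14 and 0 at an unadjusted p under 0.05). Tex15, one of the 7, was at 113, 173, 111 and 83.3 CPM against 23.1, 42.04, 16.9 and 13.7 in J1 (limma adjusted p = 0.005, at most 0.048). Sohlh2 was at 109, 89.4, 62.4 and 47.4 CPM against 58.0, 26.8, 2.68 and 1.61 (log2 change 2.94 ± 0.66, limma adjusted p = 0.045, at most 0.116). Both lines expressed Sohlh2 on day 0, and it was low in J1 on days 4 and 7. By edgeR 3 germline genes passed.

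Emp1, one of the leading genes of cluster 6, rose on all 4 days (log2 change 2.10 ± 0.21, limma adjusted p = 0.014, at most 0.082 without 1 day), at 73.4, 112, 25.6 and 102 CPM against 20.1, 35.2, 3.44 and 24.5. Npy did not pass (8.16, 10.1, 0.72 and 1.13 against 0.37, 0.60, 0.75 and 2.14, limma adjusted p = 0.27), and its 2 highest values were those of days 0 and 2 in the libraries labelled Eed null. Xlr3a, with 0 UMIs in the other day 0 clusters, was expressed in J1 at 132, 85.2, 28.99 and 12.5 CPM and under the Eed null label at 107, 87.6, 136 and 62.3 (limma adjusted p = 0.20). Zfp42 and Otx2 did not pass either (limma adjusted p = 0.30 and 0.93), and on day 0 Otx2 was at 15.4 CPM against 43.8 in J1.

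**Figure D4:**
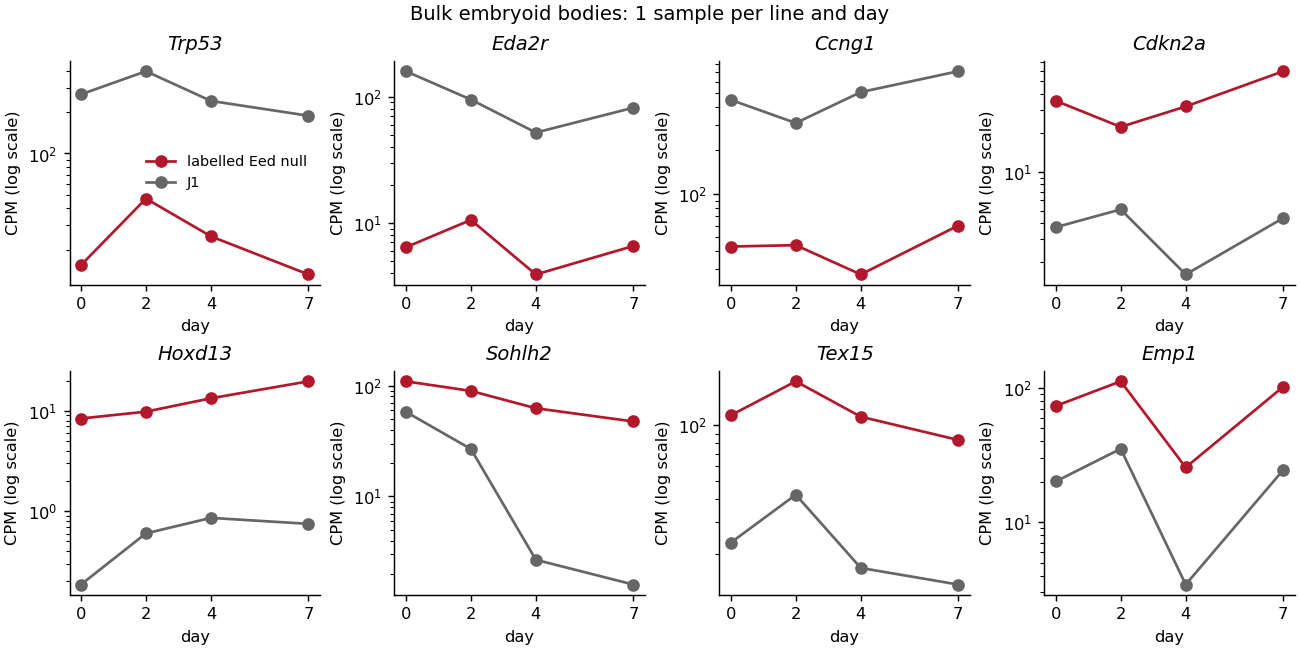
CPM (log scale) of 8 genes by day in the bulk embryoid body series labelled Eed null (red) and J1 (grey), 1 sample per point. The day 0 columns are marked mono, not eb. Trp53, Eda2r and Ccng1 lie below J1 on each day, and Cdkn2a, Hoxd13, Sohlh2, Tex15 and Emp1 lie above it.

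Replicated monolayer cultures carried the labels of the accessory subunit mutants. Undifferentiated cells, titled E14 for every genotype, had 4 libraries per genotype and none of Eed null cells. The study's methods name other wild-type lines as matched in background to the Mtf2 null and Jarid2 null lines. Genotype and line of origin therefore cannot be told apart in these comparisons with WT. Mtf2 itself was at 32.5 ± 1.94 CPM in Mtf2 null and 453 ± 70.5 in WT cells (SD, n = 4). Jarid2 was at 306 ± 11.3 CPM in the libraries labelled Jarid2 null and 407 ± 53.2 in WT (log2 change -0.41, edgeR adjusted p = 0.008), so its RNA was only slightly lower and was not called at the thresholds used. Mtf2 null cells had 1387 of 17155 genes higher than WT (8.09%) and 1099 lower (6.41%) at an edgeR adjusted p under 0.001 and a log2 change above 1, and the libraries labelled Jarid2 null had 97 higher (0.565%) and 92 lower (0.536%). Of the 73 genes, 61 were tested. In Mtf2 null cells 13 rose and 10 fell (median log2 change -0.28, beside -0.04 over all genes), and in the libraries labelled Jarid2 null 2 rose (Pnma5 and Tinagl1) and 1 fell (A2m). Col4a1 was at 67.9 ± 2.03 CPM in WT and 533 ± 85.2 in Mtf2 null cells (SD, n = 4). Sohlh2 was 8.16 ± 0.53 in WT, 5.97 ± 0.90 in Mtf2 null and 5.87 ± 1.21 in libraries labelled Jarid2 null.

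The p53 genes had another pattern there. Trp53 was at 176 ± 34.2 CPM in WT, 295 ± 12.8 in Mtf2 null and 176 ± 22.6 in libraries labelled Jarid2 null, and of 12 p53 targets 3 rose and 0 fell in Mtf2 null cells by edgeR (9 and 0 at an unadjusted p under 0.05). Under the Jarid2 null label 0 passed in either direction (4 up and 1 down at an unadjusted p under 0.05). The share of all monolayer genes at an unadjusted p under 0.05 was not counted, so the unadjusted counts here have no background. Of the 10 genes lower in cluster 6, Fam129a, Ifitm3, Irak3, Krt17 and Nkx6-3 rose in Mtf2 null cells, and Fam129a also in libraries labelled Jarid2 null. Only 3 Hox genes passed the filter on low counts, so this comparison says little about them.

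Clusters 9, 10, 13 and 16 were set beside this profile. In them 257 of 258, 244 of 244, 197 of 226 and 123 of 134 cells were Eed null. These clusters are called Eed null clusters here. Cluster 13 also held 25 Jarid2 null and 4 Mtf2 null cells, and cluster 16 held 11 cells of other genotypes. Of the 73 genes, 66 were also 4-fold above every day 0 cluster in cluster 10 (90.4%), and clusters 9, 16 and 13 had 51, 45 and 41. The same day 0 levels had served to pick the 73 genes, so high counts are partly built in. The share of all genes passing this rule was not counted, so the counts do not measure how much was shared. Compared with cluster 6 directly, 7, 2, 27 and 20 of the 73 were 4-fold apart in clusters 9, 10, 13 and 16. Cluster 10, with 25, 83, 126 and 10 cells of days 0, 4, 7 and 10, had the fewest calls of the clusters compared, with 4 genes higher in cluster 6 (0.0522% of 7658) and 65 lower (0.849%). The 4 were Npy, at 103 against 20.3 UMI CPM, Lama1, a basement membrane laminin, at 57.1 against 10.6, and Gbx2 and Dapp1, named after their values were seen, at 44.2 and 22.1 against 7.82 and 3.68. Gbx2 is a homeobox factor downstream of LIF. Genes lower in cluster 6 included Stra8, the inducer of meiosis, at 5.94 against 55.2, and the trophoblast and epithelial genes Gata2, Gata3, Krt8 and Krt18.

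**Figure D5:**
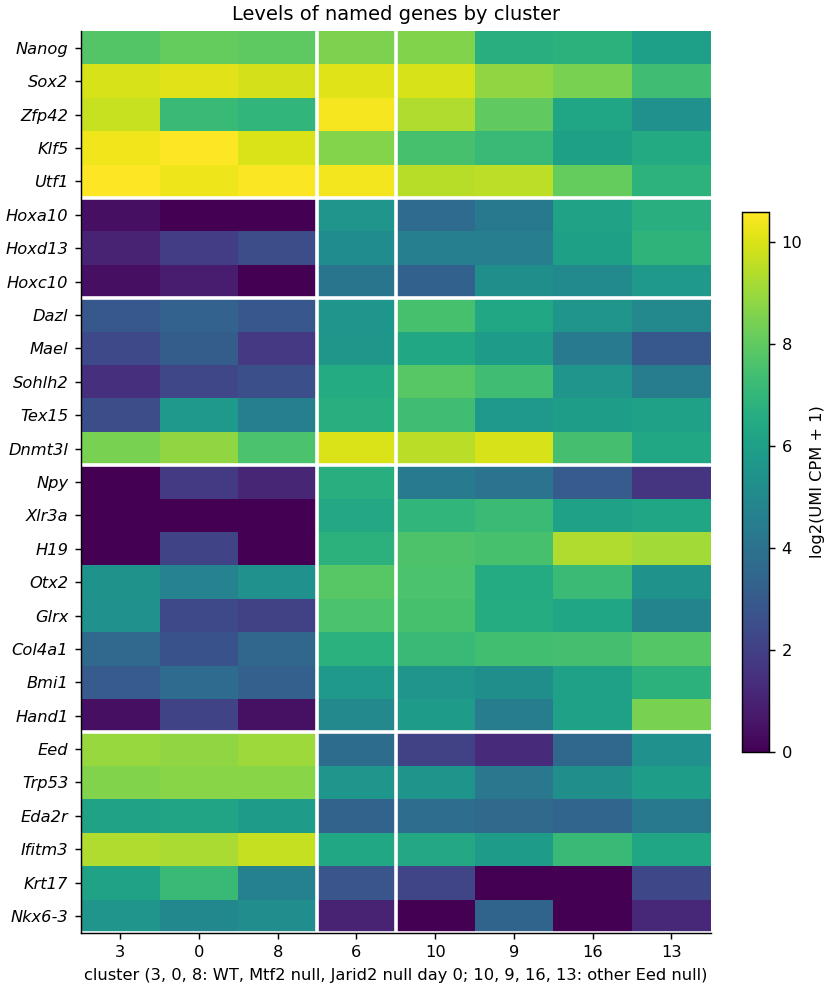
Levels of 27 named genes as log2(UMI CPM + 1) in cluster 6, in the 3 other day 0 clusters to its left and in 4 other mostly Eed null clusters to its right. Dark cells are low and yellow cells high. Hoxa10, Hoxd13, Sohlh2 and Xlr3a are darker in clusters 3, 0 and 8 than in these 4 and cluster 6, and Eed, Trp53 and Ifitm3 show the opposite.

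Cluster 9, mostly day 4 cells, differed more, with 227 of 7556 genes higher in cluster 6 (3.00%) and 144 lower (1.91%). The median over all genes was 0.29 in this comparison, so smaller ratios carry that shift. Myc, a driver of growth, was at 90.5 UMI CPM in cluster 6 and 5.55 in cluster 9, the neuronal tubulin Tubb3 at 151 against 18.0 and L1td1, an RNA-binding protein of stem cells, at 360 against 41.6. Genes known to respond to low oxygen or stress were lower, Adm (adrenomedullin) at 2.31 against 87.4 and Ddit4 at 31.7 against 382, and the 17 glycolysis and hypoxia genes had a median log2 ratio of -1.10. Clusters 13 and 16, of days 10 and 7, differed most, with 310 genes higher (3.62%) and 927 lower (10.8%) for cluster 13, and 186 higher (2.32%) and 398 lower (4.96%) for cluster 16. Npy, Zfp42 and Trh led the genes above cluster 13, and Hoxd13 and Hoxa10 stood at 117 and 97.6 UMI CPM there against 34.99 and 45.6 in cluster 6.

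A similar contrast ran within the Eed null day 0 library. Of its 340 cells, 34 lay in cluster 9, 25 in cluster 10 and 1 in cluster 0. The day 0 cells of clusters 9 and 10 had Slc2a3, a glucose transporter, at 4766 and 3956 UMI CPM against 1823 in cluster 6, and Bnip3, a mitophagy gene induced by low oxygen, at 1290 and 918 against 260. H19 was at 332 and 620 against 110, and Myc at 10.5 and 19.6 against 92.2. Hoxa10, Npy and Trp53 were at 10.5 and 31.4, 57.9 and 66.7, and 26.3 and 43.1, from counts of 2 to 17 UMIs. These are cells of 1 plate, and their medians of 5461 UMIs in cluster 9 and 9947 in cluster 10 stand beside 9943 in cluster 6.

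Cells of cluster 6 had a spread of expression close to that of other day 0 cells. After thinning to 5000 UMIs, the median Fano factor, the variance over the mean, was 1.16 over 4962 genes in cluster 6 and between 1.14 and 1.16 in clusters 3, 0 and 8. The highest values among genes with a mean of at least 0.2 UMIs belonged to the metallothioneins Mt2 (20.8) and Mt1 (15.3), which bind zinc and copper, followed by Lefty2, H19, Malat1, Lars2, Id1, Msmo1, Mir703 and Fam216a. Several of these values rested on few cells. The 5 highest of 235 cells held 17.7% of Mt2 UMIs, 24.2% of Mt1 UMIs, 27.6% of Lars2 UMIs and 36.9% of H19 UMIs. Without those cells the Fano factors were 3.24 for Mt2, 1.29 for Mt1, 1.33 for Lars2 and 1.87 for H19. Lefty2, a Nodal inhibitor, kept a Fano factor of 4.38 without its 5 highest cells, against 2.78, 3.38 and 1.48 in clusters 3, 0 and 8.

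The share of cells in which a gene is seen depends on depth and is not the share that expresses it. At 2500 UMIs, Npy was seen in 19.4% of cluster 6 cells (14.9 to 24.6%), Xlr3a in 21.2%, Sohlh2 in 18.3%, H19 in 17.6% and Hoxd13 in 7.55%, while Zfp42 was seen in 90.6%. In cluster 3 Npy, Xlr3a, H19 and Hoxd13 were in 0 of 318 cells, where a floor of 3 cells allows up to 0.943% of cells with a UMI at this depth, and without thinning Hoxd13 was in 2 of 335. Without thinning the shares in cluster 6 were 41.6% for Npy, 42.2% for Xlr3a and 20.8% for Hoxd13.

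The 17 day 4 and 6 day 7 cells also expressed the naive genes. Nanog was at 560 UMI CPM (31 UMIs) in the day 4 cells and 1207 (30 UMIs) in the day 7 cells, against 347 on day 0, and Zfp42 at 686 and 1248 against 1392. Xlr3a was at 217 and 241 UMI CPM from 12 and 6 UMIs. Klf5 was at 144 and 201 from 8 and 5 UMIs, against 399 on day 0. Npy and Trp53 had at most 3 UMIs in either group, so their levels were not measurable at this depth.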

How the data were processed

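The single-cell table holds counts of UMIs. The authors aligned the SORT-seq reads to GRCm38/mm10 with Bowtie2, counted them with HTSeq, kept 4949 cells of 16 plates and clustered them, and the deposited cluster number at resolution 2.5 defined the members. Library totals ran from 1339722 to 3889890 UMIs. The bulk embryoid body table holds deposited signal values, read counts that the authors divided by DESeq2 size factors after Bowtie2 and Salmon, and whole reads were recovered from them (100% of values whole within 0.02, 4071242 to 11082123 reads in the 8 samples used, repeat columns of a sample summed). The monolayer tables hold Salmon's estimated counts per gene as the authors deposited them, rounded here (9883730 to 16365806 per library). 1 column could not be matched to a sample and was not used.

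UMIs were summed per cluster. A group with 0 UMIs entered a ratio at 3 UMIs, and intervals are exact 95% (Poisson for ratios, Clopper-Pearson for shares) and cover counting error only. The limit given for a share of 0 is 3 cells of the total. Cells were thinned to 2500 UMIs for shares and sums per cell (278 of 303 cells of cluster 6 kept, 318 of 335 of cluster 3) and to 5000 for the Fano factor. Bulk samples were tested on log2 CPM with a prior count of 2 by limma 3.58.1 with day as a block, on the 14565 genes with at least 1 CPM in 4 samples, and monolayer samples by edgeR 4.0.16 quasi-likelihood with Benjamini-Hochberg adjustment. DESeq2 1.42.0 was an alternative. R 4.3.3, Python 3.11.15, numpy 2.4.6, scipy 1.17.1 and pandas 2.3.3 were used. Each script was first tested on simulated data. Where labels do not tell cultures apart, p-values measure the spread between samples, which may be technical. The study describes its bulk replicates as technical.

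The members, gene lists and tests were chosen with earlier results of these data known. Named genes were list members, the 12 of largest ratio in each direction against all other cells and against cluster 3 and the 8 against each other cluster (50 UMI CPM or more in the higher group), the 10 of highest Fano factor, and Eed, Mtf2 and Jarid2. Other genes, among them the remaining members of the 73 and 10, those of the chromosome counts and the plate comparison of day 0 cells, were named after their values were seen. Genes were matched by symbol to RefSeq (15258 of 15830), to the bulk test (12882) and to the monolayer test (12864).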

Additional observations from a re-analysis of the deposited data

How the results depend on the processing

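Counts of genes called in single cells moved with the fold, while those not given here stayed within 1.5 times. Against cluster 3 (141 higher, 48 lower), a fold of 2 gave 430 and 340, a fold of 8 gave 59 and 12, a minimum of 50 UMI CPM gave 49 and 23, and thinning to 2500 UMIs gave 84 lower. Against all other cells (65 and 152) the values were 317 and 619 at a fold of 2, 8 and 72 at a fold of 8, 29 and 62 at 50 UMI CPM, and 100 and 46 with day 0 cells alone. Against every other day 0 cluster (73 and 10) they were 231 and 91, 29 and 4, and 30 and 6, and thinning gave 19 lower. In bulk (726 and 671), no block for the day gave 3 and 5, no filter 349 and 345, and no TMM scaling 1094 and 438. Leaving out 1 day gave 3 to 45 higher and 4 to 42 lower, with 9 and 9 without day 0, 3 and 4 without day 2, 45 and 42 without day 4, and 27 and 18 without day 7, each with fewer samples. For Jarid2 null monolayers (97 and 92), no filter gave 220 and 144, the endoderm series alone 29 and 42, the mesoderm series alone 3 and 11, and leaving out 1 replicate 65 to 104 and 69 to 85. For Mtf2 null (1387 and 1099), the series alone gave 716 and 668 lower, and leaving out 1 replicate gave 1198 to 1392 higher and 950 to 1189 lower. Within a series, the log2 differences between replicates 1 and 2 correlated between genotypes at -0.23 to 0.32. Samples with the same replicate number were therefore not treated as pairs. A replicate block gave 1358 and 1062 for Mtf2 null and 90 and 83 for Jarid2 null. The cause of these shifts was not tested. The bulk calls rest on 1 sample per line and day, and the 17 and 6 cells of days 4 and 7 give few UMIs.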
